A study of Oryzias latipes with 2 samples.

Results

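The genes *gh* (growth hormone, ENSORLG00000019556) and *sl* (somatolactin, ENSORLG00000013460) are 2 of the 19483 genes with counts in the single-cell RNA sequencing (scRNA-seq) of the medaka pituitary, and they were chosen by identifier, not by their values. The data are 1 library of dissociated cells pooled from 24 females and 1 library pooled from 23 males, all adult fish of about 8 months of the line d-rR lhb:GFP, in which the *lhb* promoter drives a green fluorescent protein in every fish of both groups. Transcripts were counted as unique molecular identifiers (UMIs) with the 10x Chromium 3′ kit, version 2. Neither sex has a replicate library, so no test between the sexes was made, the differences have no replicate check, and every interval given is a 95% interval for counting error only (exact Poisson for UMIs, exact Clopper-Pearson for shares of cells). The study asked which hormone-encoding genes are found in which pituitary cells, and the comparisons below ask how strongly, and in how many cells, each of these genes was measured.

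Growth hormone, prolactin and somatolactin are related protein hormones of one family. Growth hormone, made by somatotropes, drives body growth and metabolism. Somatolactin is a fish hormone made by somatolactotropes of the pars intermedia, and in medaka it is known for its part in body colour and pigment cells. In mammals the growth hormone, prolactin and thyrotropin cells share a dependence on the transcription factor Pou1f1.

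The female library held 2592 cells and 11750195 UMIs and the male library 3804 cells and 17691130 UMIs, of which 371 and 559 cells are annotated as red blood cells. Without these, the median depth was 4127 UMIs per cell in females and 3832 UMIs in males. The libraries share 16 cell barcodes, of which 1 belongs to an annotated male somatotrope and 0 to an annotated female somatotrope or a somatolactotrope of either sex. A level is given here as the UMIs of a gene per 10000 UMIs, either of 1 cell or pooled over the cells of a group. A level of 100 per 10000 divides cells above and below the cut, the value used to call a cell rich in *gh* or *sl*.

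*gh* was found at high level in most somatotropes of both libraries and at a low level in most cells of other types. The *gh* gene had 103246 UMIs in the female library and 297109 UMIs in the male library, which is 87.9 per 10000 (interval 87.3 to 88.4) in females and 167.9 per 10000 (167.3 to 168.5) in males, a ratio of female over male of 0.523. Somatotropes held 90.6% of all *gh* UMIs in females and 93.8% in males. They were 52 female and 127 male cells. Without red blood cells, that is 2.34% of the female cells (1.75 to 3.06%) and 3.91% of the male cells (3.27 to 4.64%). The pooled level in somatotropes was 2369.7 per 10000 in females (2355 to 2385) and 2719.7 per 10000 in males (2709.6 to 2729.8), which gives a female over male ratio of 0.871 with a counting interval of 0.865 to 0.878. The ratio within somatotropes is thus nearer to 1 than the ratio between the whole libraries. Across the single cells the median was 1762 per 10000 in female somatotropes and 2142 per 10000 in male somatotropes. The standard deviation over cells (1707 in females and 1814 in males, on the same scale) is larger than the difference between the libraries.

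**Figure D1:**
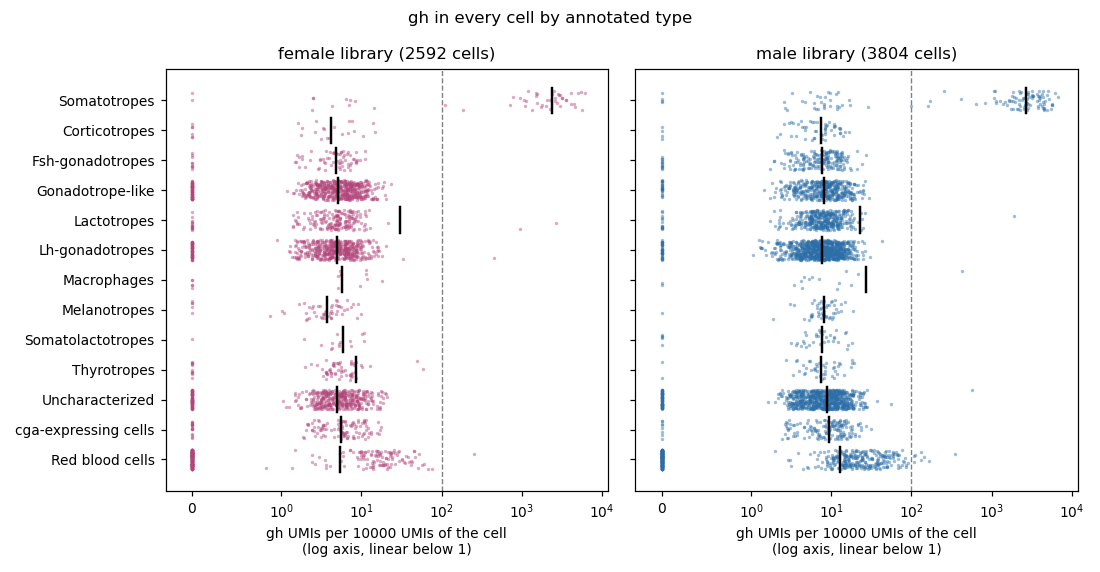
Level of *gh* in every cell of the female (left) and male (right) library by annotated type, in UMIs per 10000 UMIs of the cell on a log axis that is linear below 1. Each point is a cell, the black bar is the pooled level of the type, and the dashed line is the cut of 100. Somatotropes, in the top row, split into cells at 111 or more and cells near the level of all other types, but for 1 male cell at 98.8. In addition, 2 female and 1 male lactotrope lie far to the right of their type.

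The somatotropes fell into a *gh*-rich group and a *gh*-poor group with few cells between them. Above the cut were 41 of 52 female somatotropes (78.8%, interval 65.3 to 88.9%) and 91 of 127 male somatotropes (71.7%, 63.0 to 79.3%), and these intervals overlap. In the female *gh*-rich cells the level ran between 111 and 6234 per 10000 with a median of 2424, and in the male *gh*-rich cells between 161 and 6691 with a median of 2776. At the upper end, *gh* alone was 62.3% of the UMIs of a female cell and 66.9% of those of a male cell. The lower and upper quartiles of the *gh*-rich cells were 1504 and 3225 per 10000 in females and 1889.8 and 4027 in males, so the libraries overlap over most of their range. Only 2 female and 3 male somatotropes were within a factor of 2 of the cut, and the values next to it were 14.5 and 111 per 10000 in females and 98.8 and 161 per 10000 in males.

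Among *gh*-rich somatotropes, cells with more other RNA also had more *gh* UMIs. Spearman's rho between the *gh* UMIs and all other UMIs of a cell was 0.39 over 41 female cells and 0.44 over 91 male cells. For the level per 10000 it was -0.17 in females and -0.09 in males. These are descriptions over cells of 1 library, which share the library and its depth. The 5 richest cells held 39.5% of the *gh* UMIs of the female *gh*-rich group and 19.6% of those of the male group.

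The *gh*-poor somatotropes were 11 female and 36 male cells. In the female cells *gh* ranged from 0 to 14.5 per 10000 with a median of 4.33, and 2 of the 11 had no *gh* UMI. In the male cells it ranged from 0 to 98.8 with a median of 7.71, and 4 of the 36 had none. Pooled, these cells had 5.06 *gh* UMIs per 10000 in females (24 UMIs, interval 3.24 to 7.52) and 11.0 in males (158 UMIs, 9.36 to 12.9). The male value rests in part on 1 cell with 49 *gh* UMIs, and without it the other 35 cells had 7.87 per 10000 (6.46 to 9.49). Cells of all other types below the cut, red blood cells left out, had 5.003 per 10000 in females (4.87 to 5.14) and 7.93 in males (7.80 to 8.07). The female *gh*-poor somatotropes lay within counting error of the level in cells of other types. The 36 male ones lay above it, and within counting error of it only without that 1 cell. Both the *gh*-poor cells and the cells compared were chosen by a low *gh* level, so the closeness is a description and not a test.

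The *gh*-poor cells still carried the other genes by which the authors mark somatotropes. Their deposited marker table for males lists 4 genes beside *gh*: *nptna* (neuroplastin, a cell adhesion protein), *sncga* (a gamma-synuclein), *abhd15a* (a hydrolase-domain protein) and ENSORLG00000022615. The cells were clustered, and the markers chosen, on these same cells, so their levels describe the annotated group and do not test it. The levels that follow are per 10000 UMIs other than *gh*, so that the *gh* share itself does not lower them. *nptna* was at 11.6 in *gh*-poor and 21.1 in *gh*-rich female somatotropes, with 1.70 in other female cells. In males *nptna* was at 12.001 in *gh*-poor and 19.4 in *gh*-rich somatotropes, with 1.07 in other cells. *abhd15a* was at 6.32 in *gh*-poor and 11.3 in *gh*-rich female somatotropes, with 0.41 in other cells, and at 8.51 and 14.6 in males, with 0.59 in other cells. Both genes were thus lower in the *gh*-poor than in the *gh*-rich cells, outside the counting intervals, and far above the rest of the pituitary.

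*sncga* ran the other way. Its level was 32.5 per 10000 in *gh*-poor female somatotropes (27.5 to 38.0) against 8.16 in *gh*-rich ones (7.08 to 9.35), and 20.0 in *gh*-poor male somatotropes (17.8 to 22.5) against 8.96 in *gh*-rich ones (8.22 to 9.75). Every one of the 11 female and 36 male *gh*-poor cells had an *sncga* UMI, compared with 21.1% of the other female and 19.6% of the other male cells. Of the *gh*-rich cells nearly all had one too, 97.6% in females and 96.7% in males. ENSORLG00000022615 was at 6.32 in *gh*-poor and 7.88 in *gh*-rich female cells, and at 7.47 and 6.57 in male cells, with overlapping counting intervals in both libraries. Pooled over all other cells it was near 0, with 0.10 in females and 0.06 in males, but *sl*-rich somatolactotropes carried it. Per 10000 UMIs other than *sl*, it was at 3.45 in *sl*-rich female cells (2.21 to 5.14), with a UMI in 12 of 15. In *sl*-rich male cells its interval was 3.13 to 8.12, with a UMI in 9 of 12. That male interval holds the *gh*-rich male value of 6.57, whereas the female interval lies below the *gh*-rich female value of 7.88.

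A count over all genes gives the scale of these values. A gene was counted as higher when its pooled level was 4-fold or more that in other cells, a size chosen after the values had been seen. All 4 markers were past it in the *gh*-poor female cells, where 1.34% of the 4390 genes compared were, and in the *gh*-rich female cells, where 1.19% of 9434 were. All 4 were likewise past it in the *gh*-poor male cells, where the share of all genes was 1.41% of 7799, and in the *gh*-rich male cells, where it was 1.29% of 10177. The median ratio of the markers to other cells was 20.9-fold in *gh*-poor and 20.1-fold in *gh*-rich female somatotropes, and 16.8-fold and 21.4-fold in males, beside medians over all compared genes of 0.80, 0.82, 0.85 and 0.88. Of the genes 4-fold higher in *gh*-poor cells, 25 of 59 in females and 50 of 110 in males were also 4-fold higher in *gh*-rich cells. Those shared genes were 71.4% of the 35 female and 61.0% of the 82 male genes past that size in *gh*-rich cells, among the genes compared in both.

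**Figure D2:**
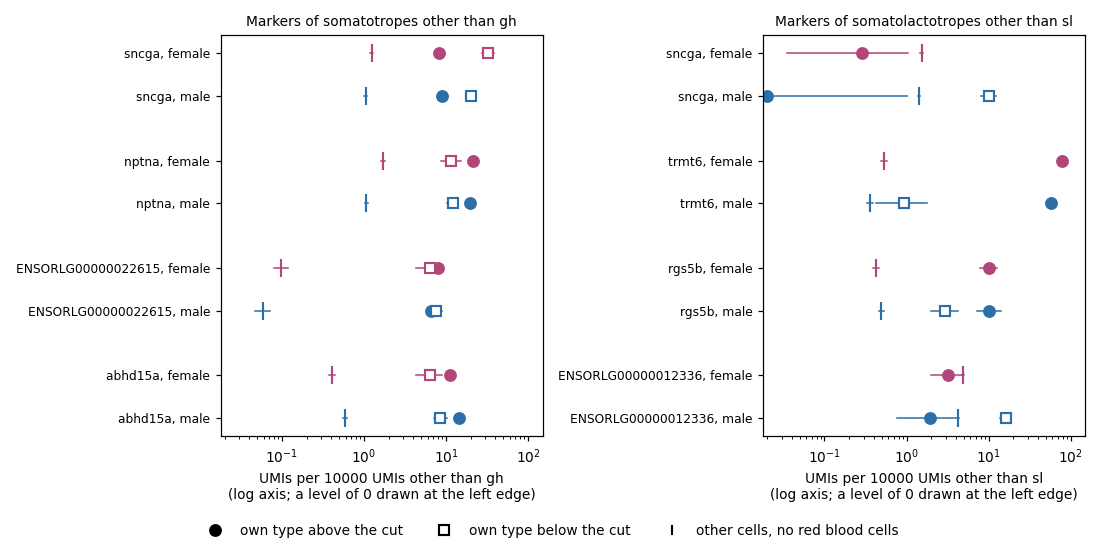
Pooled level of the authors' somatotrope markers beside *gh* (left) and somatolactotrope markers beside *sl* (right), in UMIs per 10000 UMIs other than *gh* or *sl*, on log axes. Filled circles are cells of the own type above the cut, open squares those below it, vertical ticks all other cells without red blood cells, and lines the counting intervals. Squares lie closer to circles than to ticks for *nptna*, *abhd15a* and ENSORLG00000022615 and to the right of the circles for *sncga* of somatotropes, whereas for *trmt6* the male square (0.92) lies near the tick (0.36) and far from the circle (57.5).

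*gh*-poor somatotropes were shallower. Their median total was 4163 UMIs in females, against 7189 in *gh*-rich cells, and 3731.5 in males, against 8243. The gap is smaller but remains when *gh* is left out of the total, with medians of 4162 against 5349 UMIs in females and 3728.5 against 5574 in males. All of the 47 *gh*-poor cells had at least 1607 UMIs. With every cell thinned to 1500 UMIs, 78.8% of the female and 72.4% of the male somatotropes were above the cut, close to the unthinned shares of 78.8% and 71.7%. Thinning keeps the expected level of a cell and few cells lie near the cut, so the part of depth in the *gh*-poor group was not tested.

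The genes that separate *gh*-poor from *gh*-rich somatotropes were ranked by the log2 ratio of their pooled levels (0.5 per 10000 added to each), over 1434 genes in females and 3203 in males. ENSORLG00000014167 was among the 5 genes highest in *gh*-poor relative to *gh*-rich cells in both libraries, with 14.3 per 10000 in *gh*-poor and 3.15 in *gh*-rich female cells (log2 ratio 2.02) and 11.4 and 2.75 in male cells (log2 ratio 1.88). *sncga* came next in females (log2 ratio 1.93). In males *trmt6*, known as a subunit of a tRNA methyltransferase and on the authors' list for somatolactotropes, came first with 3.14 per 10000 in *gh*-poor and 0.45 in *gh*-rich somatotropes (log2 ratio 1.94), and 24 of the 36 *gh*-poor cells had a UMI of it.

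Some of the genes lowest in *gh*-poor cells rest on 1 cell of the *gh*-rich group. In females these include *fshb*, the beta subunit of follicle-stimulating hormone, *cga*, the alpha subunit shared by gonadotropins and thyrotropin, and *prl*, prolactin. One *gh*-rich female cell gave 3134 of the 3445 *fshb* UMIs of that group, one gave 2574 of the 4130 *cga* UMIs, and one gave 1750 of the 2180 *prl* UMIs. The median over *gh*-poor female cells was 3.48 per 10000 for *fshb*, 19.2 for *cga* and 10.8 for *prl*, close to the *gh*-rich medians of 5.15, 22.1 and 11.4. Per 10000 UMIs other than *gh*, *cabp5a* was at 23.4 in *gh*-rich female cells, below the 57.1 of other female cells. It had 11 UMIs in the *gh*-poor female cells and 594 UMIs in 36 of the 41 *gh*-rich ones, 165 of them in 1 cell. ENSORLG00000024587 does not rest on 1 cell either. It had 0 UMIs in the 11 *gh*-poor female cells, where 3 counts would be a level of 0.63 per 10000, and 64 UMIs in 27 of the 41 *gh*-rich ones. In males it had 4 UMIs in the 36 *gh*-poor cells and 158 UMIs in 65 of the 91 *gh*-rich ones. The 5 lowest genes in males were ENSORLG00000027842, *ptgdsb.1*, ENSORLG00000015714, ENSORLG00000012186 and ENSORLG00000022638. None of these had most of its *gh*-rich UMIs in 1 cell. ENSORLG00000022638 was at 2.65 per 10000 UMIs other than *gh* in *gh*-poor male cells. In *gh*-rich male cells it was at 13.0, with a UMI in 85 of the 91, and in other male cells at 1.54. ENSORLG00000027842 was at 3.09 in *gh*-rich and 1.12 in other male cells, but only 13 *gh*-rich cells had a UMI of it. Lower in *gh*-rich than in other male cells were *ptgdsb.1* (2.09 against 2.26), ENSORLG00000015714 (3.70 against 6.99) and ENSORLG00000012186 (1.83 against 2.61).

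ENSORLG00000024587 was also the gene whose pattern over cell types was most like that of *gh*. Likeness was measured as Pearson's r of log2 pooled levels (UMIs per 1000000, 10 added) over 26 profiles, the 13 annotated types of each library, among 9395 other genes with 50 or more UMIs in each library. The profiles of 1 library share its depth and its free RNA, and r is given as a description. ENSORLG00000024587 had r = 0.9501, with a pooled level of 1.84 per 10000 in *gh*-rich female and 1.79 in *gh*-rich male somatotropes and 0.0036 in other female and 0.0043 in other male cells. The next in order were ENSORLG00000004371 with r = 0.909, ENSORLG00000027951 with 0.885, ENSORLG00000023775 with 0.797 and ENSORLG00000009937 with 0.791. Unlike the first in females, each of these 4 had UMIs in the *gh*-poor cells of both libraries. ENSORLG00000023775, for example, was at 4.21 per 10000 in *gh*-poor and 2.68 in *gh*-rich female somatotropes, and at 5.02 and 2.81 in males. None of the 5 identifiers is paired with a name in the tables used.

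The *sl* gene was measured at high level in all annotated somatolactotropes of the female library and in a minority of those of the male library. It had 36325 UMIs in the female library and 21020 UMIs in the male library, that is 30.9 per 10000 (30.6 to 31.2) in females and 11.9 per 10000 (11.7 to 12.04) in males, a female over male ratio of 2.60. Somatolactotropes, 15 female and 38 male cells, held 86.1% of the *sl* UMIs in females and 81.4% in males. Their pooled level was 3104 per 10000 in females (3069 to 3138) and 1133 per 10000 in males (1116 to 1149.7), a ratio of 2.74 with a counting interval of 2.69 to 2.79. Counting only cells above the cut, the levels were 3104 per 10000 in females and 3184 per 10000 in males (3136 to 3232), a ratio of 0.975. The higher level in the female library therefore holds over all annotated somatolactotropes and not within the *sl*-rich ones.

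**Figure D3:**
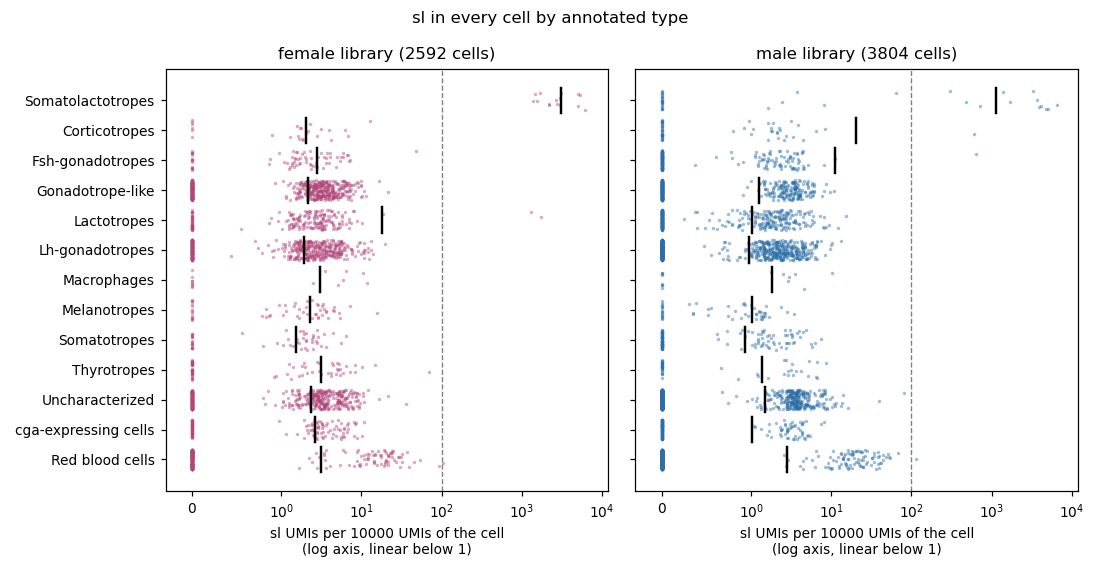
Level of *sl* in every cell of the female (left) and male (right) library by annotated type, in UMIs per 10000 UMIs of the cell on a log axis that is linear below 1. Points are cells, black bars pooled levels and the dashed line the cut of 100. All 15 female somatolactotropes lie at 1396 or more, whereas 26 of the 38 male ones lie below the cut, most of them at 0.

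All 15 female somatolactotropes were *sl*-rich (100%, interval 78.2 to 100%), with levels between 1396 and 6236 per 10000 and a median of 2772. In males 12 of 38 were *sl*-rich (31.6%, 17.5 to 48.7%), with levels between 305 and 6462 and a median of 3489.9. The intervals of these shares do not overlap between the libraries. The *sl*-rich cells were 0.675% of the female cells without red blood cells (0.378 to 1.11%) and 0.370% of the male cells (0.191 to 0.645%), and those intervals do overlap. In the richest cell *sl* made up 62.4% of the UMIs in females and 64.6% in males. The spread over *sl*-rich cells was wide, with a standard deviation of 1570 per 10000 around a mean of 3118 in females and of 2029 around 3004 in males. No somatolactotrope of the female library was within a factor of 2 of the cut, and 1 of the male library was.

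The 26 *sl*-poor male somatolactotropes had almost no *sl*. In 21 of them no *sl* UMI was counted, and the other 5 had 1, 1, 2, 3 and 45 UMIs. Pooled they had 5.33 per 10000, and 0.773 per 10000 (7 UMIs in 25 cells, 0.311 to 1.59) without the cell with 45 UMIs. Male cells of other types below the cut had 1.11 per 10000 (1.06 to 1.16), inside that interval. The *sl*-poor cells were shallower, with a median of 2587.5 UMIs against 4148.5 UMIs in *sl*-rich male cells and 6352 UMIs in *sl*-rich female cells. With *sl* left out of the total, these medians were 2586, 3305 and 4894 UMIs. Thinned to 1500 UMIs per cell, 31.6% of the male and 100% of the female somatolactotropes were above the cut, as in the unthinned data. Because thinning keeps the expected level of a cell, these shares do not test the part of depth in the *sl*-poor group.

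Whereas the *gh*-poor somatotropes carried all listed markers of their type, the *sl*-poor cells had little *trmt6*, the listed marker highest in *sl*-rich cells. ENSORLG00000024587, the gene most like *gh* but not a listed marker, was likewise low in *gh*-poor cells. *trmt6* was at 0.92 per 10000 UMIs other than *sl* in *sl*-poor male cells (9 UMIs, 0.42 to 1.75) against 57.5 in *sl*-rich male cells (49.99 to 65.8) and 77.5 in *sl*-rich female cells (71.1 to 84.4), and it was at 0.36 in other male and 0.54 in other female cells. Every *sl*-rich cell, 15 female and 12 male, had a *trmt6* UMI, and 23.1% of the *sl*-poor cells had one. *rgs5b*, a regulator of G protein signalling, was at 2.98 in *sl*-poor male cells (1.99 to 4.28), with 20 of its 29 UMIs in 1 cell and 0.99 without that cell, and at 10.1 in *sl*-rich cells of either sex. The other 2 listed markers were found on the *sl*-poor side. The list comes from the authors' table for males, whose annotated somatolactotropes are mostly *sl*-poor, so these levels describe that group and do not test it. *sncga* was at 10.1 in *sl*-poor male cells (8.17 to 12.3), at 0 UMIs in the 12 *sl*-rich male cells, where 3 counts would be a level of 0.82, and at 0.29 in *sl*-rich female cells. ENSORLG00000012336 was at 16.1 in *sl*-poor male cells (13.7 to 18.8), 1.92 in *sl*-rich male cells and 4.25 in other male cells. Male somatotropes carried both genes too. Per 10000 UMIs other than *gh*, ENSORLG00000012336 was at 12.1 in *gh*-poor and 16.5 in *gh*-rich male somatotropes, and *sncga* at 20.0 and 8.96.

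Against other cells, 2 of the 4 markers beside *sl* were 4-fold or more higher in each group. They were *trmt6* and *rgs5b* in *sl*-rich female cells, where 1.97% of all 5645 compared genes were, and the same 2 in *sl*-rich male cells, where 2.59% of 3278 genes were. In *sl*-poor male cells they were *sncga* and *rgs5b*, beside 0.74% of 6489 genes, but *rgs5b* passed only with its 1 rich cell (0.99 without it, against 0.49 in other cells). Among the 3278 genes compared in both male groups, 85 were past that size in *sl*-rich cells (2.59%) and 11 in *sl*-poor cells. Past it in both were 4 genes, which is 4.71% of the 85 and 36.4% of the 11.

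The *sl*-poor male cells were not alike in their other hormone genes. Of the 26, 4 were above 100 per 10000 for *lhb*, the beta subunit of luteinizing hormone, and these 4 also for the GFP cassette, and 2 were above it for *prl*. The highest value was 410 per 10000 for *lhb*, 2385 for GFP and 1154 for *prl*. Any hormone-encoding gene other than *sl* was above 100 in 5 cells. None of the 7 hormone genes, *cga* or GFP was above 100 in 18 of the 26. The 12 *sl*-rich male cells had none of the other 6 hormone genes above 100, and the 15 *sl*-rich female cells had none either, with 1 of them above 100 for *cga*. The genes highest in *sl*-poor relative to *sl*-rich male cells, of 654 ranked, were *sncga* (log2 ratio 4.40), GFP (3.54), ENSORLG00000010931 (3.27), *cyp19b* (3.17) and *cabp5a* (2.90). The GFP ratio rests on few cells, as the 4 cells rich in *lhb* held 2977, 1658, 1593 and 1356 of the 7988 GFP UMIs, and the medians were 60.7 per 10000 in *sl*-poor and 46.4 in *sl*-rich cells. ENSORLG00000010931 had 42 UMIs in 4 of the 26 cells, 21 of them in 1 cell. *cabp5a* had 231 UMIs in 16 cells, 68 of them in 1 cell, and its level of 23.7 per 10000 was below the 38.3 of other male cells. *cyp19b*, brain aromatase in fish, had 39 UMIs in 11 of the 26 cells and 0 UMIs in *sl*-rich cells, but its level of 4.003 per 10000 was near the 4.23 of other male cells. The lowest were *trmt6* (-5.35), ENSORLG00000027781 (-3.58), *crhbp* (-3.55), ENSORLG00000009706 (-3.18) and ENSORLG00000003768 (-2.73). *crhbp*, which encodes a binding protein of corticotropin-releasing hormone, had 1 UMI in the 26 *sl*-poor cells and 24 UMIs in 8 of the 12 *sl*-rich ones.

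By pattern over the 26 profiles *trmt6* was also the gene most like *sl*, with r = 0.825. In pooled level it was at 53.5 per 10000 in *sl*-rich female and 39.2 in *sl*-rich male cells. The next were ENSORLG00000024371 with r = 0.748, ENSORLG00000010280 with 0.737, ENSORLG00000009537 with 0.734 and ENSORLG00000011902 with 0.720. These 4 rest on few UMIs, between 8 and 27 in *sl*-rich female cells and between 4 and 13 in *sl*-rich male cells. Part of the shape of the *sl* profile comes from single cells of other types, described next, which enter the pooled levels.

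A few cells annotated as another type were rich in *gh* or *sl*. Leaving out red blood cells, 3 female and 3 male cells outside the somatotropes were above the *gh* cut, and they held 3.88% of the *gh* UMIs in females and 1.70% in males. Outside the somatolactotropes 2 female and 2 male cells were above the *sl* cut, with 6.65% of the *sl* UMIs in females and 9.09% in males. No cell of either library was above both cuts.

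The clearest of these cells are 4 female cells annotated as lactotropes, all in cluster 4 of that type. One cell had 2895 *gh* UMIs of 10930 (2649 per 10000) with 19.2 per 10000 of *prl*, and another 1041 *gh* UMIs of 11075 (940.0 per 10000) with 48.8 of *prl*. A further cell had 906 *sl* UMIs of 6911 (1311 per 10000) with 23.2 of *prl*, and the last 1510 *sl* UMIs of 8647 (1746 per 10000) with 22.0 of *prl*. The 69 cells of that female cluster had a median *prl* level of 1722 per 10000, and the only 4 of them below 100 for *prl* were these 4 cells. Both *gh*-rich cells had UMIs of all 4 somatotrope markers beside *gh*, 21 and 28 UMIs in sum. The *sl*-rich cells had 41 and 24 *trmt6* UMIs. In males 13 cells of cluster 4 were below 100 for *prl*, and 0 of them were above the *gh* or the *sl* cut.

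The male cells of this kind held another hormone gene as well, where they were deep. A male lactotrope of 25322 UMIs was deeper than 98.6% of the male cells, red blood cells left out. It had 4813 *gh* UMIs (1901 per 10000) and 791 per 10000 of *prl*, with all 4 somatotrope markers detected. A male corticotrope of 12810 UMIs had 764 *sl* UMIs (596 per 10000), 15 *trmt6* UMIs and 767 per 10000 of *pomca*, the precursor of corticotropin. A male Fsh gonadotrope of 17890 UMIs had 1146 *sl* UMIs (641 per 10000), 19 *trmt6* UMIs, 268 per 10000 of *fshb* and 108 per 10000 of *lhb*. The corticotrope was deeper than 95.1% and the gonadotrope deeper than 97.5% of the male cells, red blood cells again left out. The study removed the cells of highest doublet score before deposit. Whether these 3 cells are droplets of more than 1 cell was not tested. The 3 remaining cells had fewer *gh* UMIs, 75 in a female Lh gonadotrope, 152 in a male uncharacterized cell and 83 in a male macrophage. They were shallow, with 1676, 2645 and 1962 UMIs.

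Below the cut, *gh* and *sl* were counted in cells of every other type of both libraries. Red blood cells left out, at least 1 *gh* UMI was found in 85.9% of the 2169 other female cells (84.4 to 87.4%) and in 93.9% of the 3118 other male cells (93.0 to 94.7%). For *sl* these shares were 62.4% of 2206 female cells (60.3 to 64.4%) and 39.9% of 3207 male cells (38.2 to 41.6%). With every cell thinned to 1500 UMIs, the share with a *gh* UMI was 54.3% for the female library and 68.8% for the male library, and the share with an *sl* UMI was 29.1% for females and 17.5% for males. A *gh* UMI was thus found in most cells of types that are not named for it.

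The pooled *gh* level of the 11 other types, with red blood cells and cells above the cut left out, was between 3.74 per 10000 (melanotropes) and 8.56 (thyrotropes) in females, and between 7.35 (thyrotropes) and 9.27 (*cga*-expressing cells) in males. In female thyrotropes 1 cell had 83 *gh* UMIs (59.5 per 10000), and without that cell they were at 6.38, still the highest of the female types. These 11 male types span a ratio of 1.26 from lowest to highest, and male red blood cells below the cut lay above them at 11.6. In 8 of the 11 types the counting interval of *gh* lay lower in females than in males, and in 0 it lay higher, with overlap in macrophages, somatolactotropes and thyrotropes. For *sl* the order of the libraries was turned round. Its level was 1.55 (somatotropes) to 3.18 (thyrotropes) in females and 0.927 (somatotropes) to 1.83 (macrophages) in males, and in 9 of the 11 types the interval lay higher in females, with overlap in corticotropes and macrophages. The female thyrotropes again rest in part on 1 cell, of 38 *sl* UMIs, and were at 2.09 without it. The library with more *gh* or *sl* overall thus had more of it in nearly every type. The background of *gh* was 5.69% of the level of the whole library in females and 4.72% in males, and that of *sl* was 7.23% in females and 9.31% in males.

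**Figure D4:**
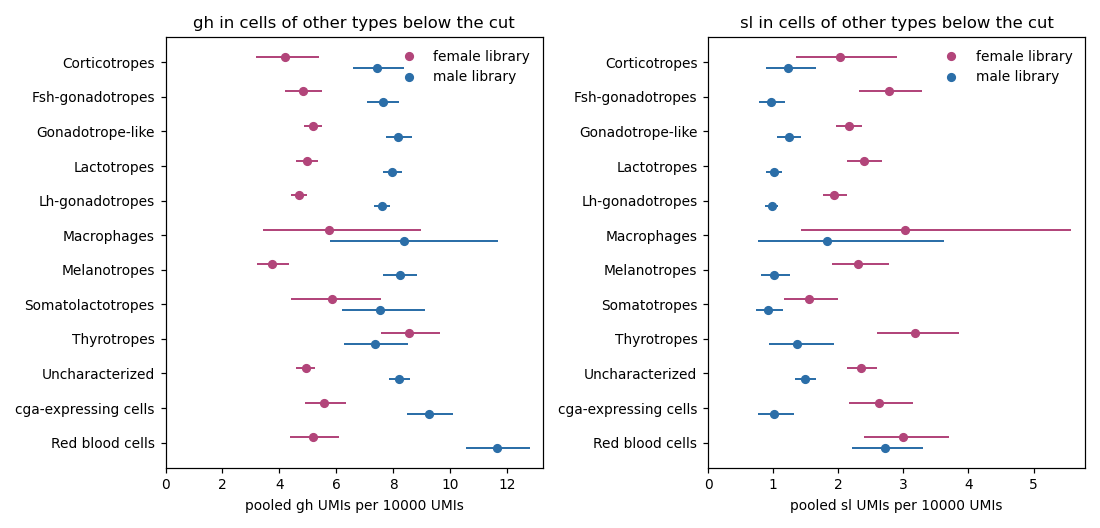
Pooled level of *gh* (left) and *sl* (right) in cells of other types below the cut, in UMIs per 10000 UMIs, for the female and male library. Points are pooled levels and lines exact Poisson intervals. The *gh* points lie lower in females than in males in every type but thyrotropes, and the *sl* points lie higher in females in every type.

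In cells rich in one of the 2 hormones, the other was low, and its place relative to the background depended on whether the rich hormone was counted in the total. In *sl*-rich somatolactotropes *gh* was at 5.85 per 10000 in females (59 UMIs in 15 cells) and 9.89 in males (53 UMIs in 12 cells), and no such cell had more than 12 *gh* UMIs. In *gh*-rich somatotropes *sl* was at 1.53 per 10000 in females (53 UMIs in 41 cells) and 0.908 in males (80 UMIs in 91 cells), and no cell had more than 5 *sl* UMIs. With the cell's own hormone left out of the total, *gh* in *sl*-rich cells was at 8.49 per 10000 in females (6.46 to 10.9) and 14.5 in males (10.9 to 19.0). These intervals lie above the 5.003 and 7.93 of other cells below the cut. On the same scale *sl* in *gh*-rich cells was at 2.09 in females (1.56 to 2.73) and 1.33 in males (1.05 to 1.65), and these intervals hold the background values of 2.24 and 1.11. The background values are per 10000 of all UMIs, other hormones included, so the totals of the compared cells are unlike. Per 10000 of all UMIs, the *gh* intervals in *sl*-rich cells were 4.46 to 7.55 in females and 7.41 to 12.9 in males. Both hold the background. The *sl* intervals in *gh*-rich cells were then 1.14 to 1.996 in females, below the background, and 0.720 to 1.13 in males, which holds it. In cells of neither type, the number of *gh* UMIs per *sl* UMI was 2.22 in females, where the 10 types ranged from 1.62 to 2.69, and 7.09 in males, where they ranged from 4.38 (macrophages, with 8 *sl* UMIs) to 9.10. The same ratio over the whole library was 2.84 in females and 14.1 in males.

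Red blood cells, which make neither hormone, give a further view of the background. With median depths of 518 UMIs in females and 503 in males, 31.8% of the female cells (27.1 to 36.8%) and 51.0% of the male cells (46.8 to 55.2%) had a *gh* UMI, and 21.0% in females and 17.2% in males had an *sl* UMI. Pooled over the cells below the cut, *gh* was at 5.19 per 10000 in females (4.40 to 6.07) and 11.6 in males (10.6 to 12.8), and *sl* at 2.999 in females and 2.72 in males. At this depth a few UMIs put a cell above the cut, and 1 female and 8 male red blood cells passed it for *gh*, with at most 21 UMIs.

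The spanning counts of both genes differed between cells rich in the hormone and the background. The tables are named so by the authors, and the sources used here do not define spanning further. In whole libraries *gh* had 73557 exon, 22 intron and 29076 spanning UMIs in females and 245252 exon, 35 intron and 50735 spanning UMIs in males. For *sl* these were 32279, 9 and 3864 in females and 19696, 2 and 1277 in males. Intron UMIs were thus at most 0.025% of either gene, whereas they were 12.9% of all genes in females and 11.7% in males. The spanning share of *gh* was 28.3% in females and 17.1% in males, and that of *sl* was 10.7% in females and 6.09% in males, beside 9.40% and 6.29% over all genes. Among the other hormone genes it was 12.9% for *lhb* and 11.7% for *fshb* in females and 7.68% and 7.51% in males, and below 1% for *prl*, *pomca* and *tshba* in both libraries.

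The spanning share of *gh* was 29.6% in *gh*-rich female somatotropes (29.3 to 29.9%) against 6.21% in other female cells below the cut (5.59 to 6.88%), a ratio of 4.77. In males it was 17.7% in *gh*-rich somatotropes (17.5 to 17.8%) against 5.88% in other cells below the cut (5.48 to 6.30%), a ratio of 3.01. For *sl* it was 11.3% in *sl*-rich female cells (11.0 to 11.7%) against 2.44% in other cells (1.88 to 3.12%), and 6.36% in *sl*-rich male cells (6.002 to 6.74%) against 2.48% in other cells (1.83 to 3.28%). For both genes the intervals of the libraries lay apart in the hormone-rich cells and overlapped in background. All other genes of the same cells differed less, with 11.1% in *gh*-rich somatotropes and 9.24% in other cells in females, and 7.58% and 6.07% in males. Single *gh*-rich cells lay close together, with quartiles of 27.7 and 30.6% in females and of 16.1 and 18.5% in males.

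The *gh*-poor somatotropes lay near the background in this measure, and cells of another type above the cut lay near the hormone-rich cells. The *sl*-poor cells had too few *sl* UMIs to be placed. In *gh*-poor somatotropes 1 of 24 *gh* UMIs in females (4.17%, 0.105 to 21.1%) and 10 of 158 in males (6.33%, 3.08 to 11.3%) were spanning. Both intervals hold the background share of their library, and the female one is wide. Of the 158 male *gh* UMIs, 49 came from 1 cell, whose share was not taken separately. In *sl*-poor male somatolactotropes 1 of 51 *sl* UMIs was spanning (1.96%, 0.050 to 10.4%). That interval holds both the male background share of 2.48% and the *sl*-rich share of 6.36%. Of the 52 *sl* UMIs counted in these cells, 45 came from 1 cell. The 2 *gh*-rich cells among the female lactotropes had 30.3% (28.6 to 32.0%) and 30.0% (27.2 to 32.9%), and the male *gh*-rich lactotrope had 17.7% (16.6 to 18.8%), each near the value of *gh*-rich somatotropes of its library. The *sl*-rich lactotropes had 13.2% (11.1 to 15.6%) and 10.5% (9.02 to 12.2%). The *sl*-rich corticotrope had 7.11% (5.39 to 9.18%) and the *sl*-rich Fsh gonadotrope 7.52% (6.06 to 9.20%). The female thyrotrope with 83 *gh* UMIs, below the cut, had 25.6% (16.6 to 36.4%).

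**Figure D5:**
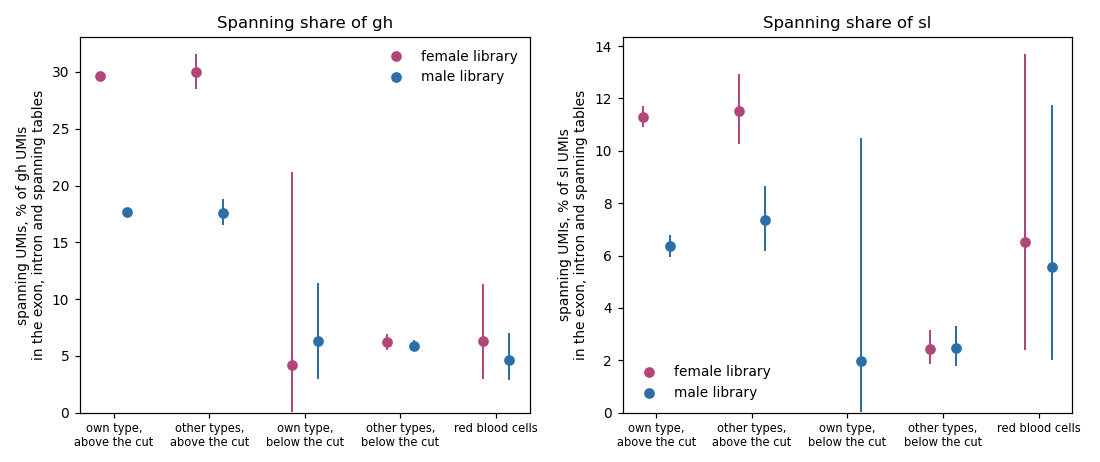
Spanning UMIs of *gh* (left) and *sl* (right) as a percentage of the UMIs in the exon, intron and spanning tables, by group of cells, for the female and male library. Points are shares, lines exact Clopper-Pearson intervals, and the female library has no *sl*-poor somatolactotrope. Cells above the cut, whatever their annotated type, have higher shares than cells of other types below it (for *gh* 29.6 and 30.0% against 6.21% in females).

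The authors' markers of other cell types, hormone genes left out, were summed in the same groups. The summed level of the 5 listed red blood cell genes had a median of 2.38 per 10000 UMIs other than *gh* in *gh*-poor and 2.68 in *gh*-rich female somatotropes, with 2.94 in other cells. In males it was 2.05, 4.05 and 2.80, but it reached 1262 in a *gh*-poor and 3189 in a *gh*-rich male cell. The summed level of the 5 macrophage genes had a median of 0 in all 4 groups of somatotropes. The summed level of the 4 somatolactotrope markers beside *sl*, which include *sncga* of the somatotrope list, had a median of 59.2 in *gh*-poor and 17.6 in *gh*-rich female somatotropes with 2.46 in other cells, and of 31.1, 19.7 and 0.84 in males. Most of the pooled sum came from *sncga* and ENSORLG00000012336, which were below other cells in *sl*-rich cells. *trmt6* was at 2.95 in *gh*-poor and 0.91 in *gh*-rich female somatotropes against 1.01 in other cells, and at 3.14, 0.45 and 0.47 in males. *rgs5b* was at 0.21 (1 UMI), 0.12 (3 UMIs) and 0.50 in females, and at 0.98, 0.15 and 0.55 in males. The part of these genes in the *gh* values was not tested.

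In *sl*-rich cells the summed lists of melanotropes, lactotropes, thyrotropes and somatotropes were above the rest of the library. The 4 melanotrope markers beside *pomca* had a median sum of 49.5 per 10000 UMIs other than *sl* in *sl*-rich female cells against 8.94 in other cells, and of 28.1 in *sl*-rich and 3.45 in *sl*-poor male cells against 4.91 in other cells. Of these genes *tph1* was at 0 UMIs in the *sl*-rich cells of both libraries, and *mt2* and *crhbp* gave nearly all of the sum. The 5 lactotrope markers beside *prl* had a median sum of 21.2 in *sl*-rich female cells against 3.30 in other cells, and of 47.5 in *sl*-rich and 6.25 in *sl*-poor male cells against 4.03 in other cells. Most of that sum came from a pair of genes listed as HSPA2, a heat shock protein. *prl* itself was at 26.8 in *sl*-rich female cells against 352 in other cells and at 28.2 in *sl*-rich male cells against 395 in other cells. The 4 thyrotrope markers beside *tshba*, which include *rgs5b*, had a median sum of 5.47 in *sl*-rich female cells against 0 in other cells. In males it was 8.61 in *sl*-rich and 0 in *sl*-poor cells against 0 in other cells. The 4 somatotrope markers beside *gh* had a median sum of 7.40 in *sl*-rich female cells against 2.64 in other cells. In males it was 6.98 in *sl*-rich and 8.57 in *sl*-poor cells against 1.95 in other cells. Only *nptna* and ENSORLG00000022615 of this list were above other cells in *sl*-rich cells. *abhd15a* had 0 UMIs in the *sl*-rich cells of both libraries, against 0.68 in other female and 1.13 in other male cells. *sncga* was at 0.29 in *sl*-rich female and 0 in *sl*-rich male cells, against 1.52 and 1.42 in other cells. In *sl*-poor male cells *sncga* was the highest of the list, at 10.1. The red blood cell sum had a median of 4.93 in *sl*-rich female cells against 2.93 in other cells, and of 5.48 in *sl*-rich and 3.68 in *sl*-poor male cells against 2.77 in other cells. The macrophage sum had a median of 0 in the *sl*-rich cells of both libraries and in the *sl*-poor cells. The part of these genes in the *sl* values was not tested.

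Of the 101 genes of the growth hormone axis, its regulators, granule proteins and markers of other cell types that were listed for this comparison, the tables pair 4 with an identifier. Beside *gh*, *sl* and *prl* this is *nr5a1b*, a homologue of the steroidogenic factor of gonadotropes. It was at 2.28 per 10000 in somatotropes and 12.7 in other cells in females, and at 0.878 and 7.84 in males. In somatolactotropes it was at 1.29 against 12.4 in other cells in females and at 2.98 against 7.47 in males. The receptors, transcription factors and granule proteins of the list could not be looked up by name.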

How the data were processed

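For each library the authors deposited UMI counts as a matrix of genes by cells, further counts split into exon, intron and spanning, and a cluster and type for every cell. The submitters' processing notes name Cell Ranger and Seurat without versions, with aligner, build and annotation not given in the sources used here; coordinates are left out. The counts were not normalized. Columns of mean expression and adjusted p-values in the marker table were not used. Summed over genes, the matrix gave each cell's deposited total in all 2592 female and 3804 male cells. One male cell with a respelled type was joined to the Lh gonadotropes.

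UMIs per 10000 were computed per cell or pooled, with a cut of 100. Thinning drew 1500 UMIs per cell without replacement (seed 7). Shallower cells were left out, 0 female and 2 male without red blood cells. Fold counts use genes with 50 or more UMIs in the library and at least 1 expected in the group. The named genes are the hormone genes, the 5 most alike for each member and the 5 of largest difference in each direction, with 20 or more UMIs. The members, lists and alternatives were chosen with earlier results of these data known. The fold count was tested on simulated counts for whole annotated types, not separately for the cells above and below the cut. Genes near the minimum expected count were not among the raised genes, so that setting was not covered. Python 3.11.15, numpy 2.4.6, scipy 1.17.1, pandas 2.3.3 and matplotlib 3.10.9 were used.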

Additional observations from a re-analysis of the deposited data

How the results depend on the processing

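Of 77 alternative values for 14 results, 47 stayed within the counting interval of the main value, 29 moved outside it and 1 reversed. The *sl* ratio of female over male in somatolactotropes, 2.74, turned to 0.975 with only cells above the cut. It was 3.46 with the hormone genes out of the total, 2.52 without cells of total UMIs past the 95th percentile and 3.25 thinned to 1500 UMIs, and the median over cells gave no ratio because the male median is 0. The *gh* ratio, 0.871, was 0.811 from exon counts, 0.841 with the hormone genes out of the total, 0.856 without cells above the 95th percentile, 0.823 as a ratio of medians, 0.957 thinned and 0.852 with only cells above the cut. A cut of 10 put 79.5% of the male somatotropes above it, outside the main interval. The share of *gh* UMIs in female somatotropes was 89.0% from exon counts, 85.5% without cells above the 95th percentile and 85.6% with each cell weighing the same, and in male somatotropes 93.2% from exon counts, 93.9% without cells below 1000 UMIs and 87.8% with equal weights. The share of *sl* UMIs in female somatolactotropes was 85.5% from exon counts, 84.5% without cells above the 95th percentile and 82.9% with equal weights, and in males 91.2% without cells above the 95th percentile and 83.1% with equal weights. The shares of other cells with a UMI were 54.3% and 68.8% for *gh* and 29.1% and 17.5% for *sl* when thinned (female, then male), and with 2 or more UMIs 61.8% and 79.8% for *gh* and 27.9% and 11.6% for *sl*. By construction, thinning and a higher UMI minimum lower a share of cells with a UMI. Thinning also gives every cell the same weight in a pooled level. The cause of the moves was otherwise not tested. No paired analysis was possible because each sex is 1 library.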
